A study of Mus musculus with 5 samples.

Results

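Bone morphogenetic proteins (BMPs) and the Id genes that respond to them were examined in mouse tracheal epithelium as 10 genes. These were the ligands Bmp2, Bmp4, Bmp5 and Bmp7, the type I receptors Bmpr1a and Bmpr1b, and Id1, Id2, Id3 and Id4. They were chosen by name, and every probe set (the group of short probes that reports 1 transcript) that the array annotation assigns to 1 of them alone was taken, 25 of the 34945 probe sets with a single gene. The 10 genes are among 18193 genes on the array. RNA from sorted cells of C57BL/6 mice, 8 to 12 weeks old and of both sexes, was hybridised to 5 Affymetrix arrays. The basal group (n = 2) held TROP-2+ITGA6+ cells of the surface epithelium, freed with dispase from the lower, longer section of the trachea. The duct group (n = 3) held TROP-2+ cells of the upper section, sorted from what remained once pronase had stripped the surface epithelium; this gate did not use ITGA6. Each array carried RNA of its own pool of 10 to 15 mice, and the labels name no transgene, treatment or mutation. The enzyme, the section of trachea and the gate all differ between the basal and the duct group, so that their parts in a difference cannot be told apart from that of the cell type.

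BMP ligands are secreted dimers that bring together type I and type II receptor kinases on the receiving cell, which then phosphorylate the transcription factors Smad1, Smad5 and Smad9. With Smad4 these enter the nucleus, where the Id genes are among their best known direct targets. Id proteins have a helix-loop-helix but no DNA-binding region, and they hold E proteins and other basic helix-loop-helix factors away from DNA. In the airway BMP signalling is known to act on the growth and differentiation of basal cells.

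The regulatory sequence next to the start site is shown for Bmp5, the ligand with the largest difference, and for the Id genes with a promoter in the reference table. Each line is the 250 bases before the RefSeq start site in GRCm38.p6, 5′ to 3′ on the gene's strand, and capitals mark the 2 kinds of match named below. The windows are chr9:75775115-75775364 on the plus strand for Bmp5, chr12:25096093-25096342 on the minus strand for Id2, chr4:136143572-136143821 on the plus strand for Id3 and chr13:48260866-48261115 on the plus strand for Id4. Promoters were found for 7 of the 10 genes; Bmp2, Bmp7 and Id1 had none in the table.
Bmp5: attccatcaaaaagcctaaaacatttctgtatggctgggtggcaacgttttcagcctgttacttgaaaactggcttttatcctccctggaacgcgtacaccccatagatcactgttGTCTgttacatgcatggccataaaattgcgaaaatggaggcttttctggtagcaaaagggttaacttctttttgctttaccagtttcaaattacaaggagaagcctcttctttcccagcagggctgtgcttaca
Id2: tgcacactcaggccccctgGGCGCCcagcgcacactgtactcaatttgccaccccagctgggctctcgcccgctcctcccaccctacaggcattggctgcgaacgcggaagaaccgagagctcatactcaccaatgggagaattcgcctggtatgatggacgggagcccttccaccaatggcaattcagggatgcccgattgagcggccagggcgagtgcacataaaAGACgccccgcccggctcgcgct
Id3: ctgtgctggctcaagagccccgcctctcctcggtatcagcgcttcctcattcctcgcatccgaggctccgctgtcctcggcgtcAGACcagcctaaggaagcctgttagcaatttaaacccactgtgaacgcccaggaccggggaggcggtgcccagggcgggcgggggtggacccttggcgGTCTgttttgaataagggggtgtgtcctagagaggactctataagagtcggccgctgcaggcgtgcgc
Id4: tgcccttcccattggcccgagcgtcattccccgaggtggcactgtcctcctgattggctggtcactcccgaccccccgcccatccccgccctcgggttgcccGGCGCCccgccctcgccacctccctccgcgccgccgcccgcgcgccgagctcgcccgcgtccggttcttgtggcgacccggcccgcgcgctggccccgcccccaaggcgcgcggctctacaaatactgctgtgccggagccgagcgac

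GGCGCC, a palindromic GC-rich word of the kind bound by BMP-activated Smads, was searched on both strands and occurs in 9.59% of the 32851 promoter windows of this length. It was present once in the Id2 window, starting 231 bases before the start site, and once in the Id4 window, at 148 bases, and was not found in the windows of Id3 and Bmp5. GTCT, the shorter Smad word, or its reverse complement AGAC was present in 82.9% of all windows. It occurred at 2 positions in the Id3 window, 166 and 68 bases before the start, at 23 bases in the Id2 window and at 134 bases in the Bmp5 window, with 0 matches in the Id4 window. The 2 words do not overlap each other in these windows. The Id2 and Id3 windows were 62.8% G or C and the Id4 window 75.6%, against a median of 52.4% over all windows and 42.8% for Bmp5. A match is a description of letters only.

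Arrays were comparable in scale but not in every quantile. The mean intensity without the lowest and highest 2% of probe sets was 500.0 on all 5 arrays, while the median was 92.3 on duct replicate 1 and 146.6 to 152.8 on the others. The brightest of 27 Bacillus control probe sets, used as a measure of background, read 39.5 to 86.5. Krt5 and Trp63, which define basal cells, were well over that level on all arrays of both groups (Krt5 at 11617 to 19821, Trp63 at 6944 to 9890). Of the 10 basal markers listed, 4 were higher and 4 lower in duct cells without overlap, beside 16.5% and 22.6% of all tested genes. The 2 called higher (limma adjusted p under 0.05) were Krt17 and Krt14, the latter at 1327 and 1533 in basal and 18421 to 22413 in duct cells. Scgb1a1, a club cell marker, read 9934 and 32690 in basal and 12567 to 18411 in duct cells. Foxj1, a ciliated cell marker, was over the controls on 2 basal and 1 duct arrays. Tg, the thyroid marker thyroglobulin, was within the range of the controls on the basal arrays and at 8779 to 20119 on the duct arrays. The summed level of 4 thyroid genes was 212 and 235 in basal and 9154 to 20879 in duct cells. Of these, 3 of the 3 tested were higher in duct cells without overlap, beside 16.5% of all tested genes. The part of thyroid cells in the values below was not tested. Sums of the 7 leukocyte genes overlapped between groups (6233 and 17658, against 13751 to 20398). Their marker Ptprc read 254 and 533 in basal and 373 to 1100 in duct cells. Since each array reads a bulk of cells, fewer cells of a type and less RNA per cell cannot be told apart.

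Of the 10 genes, 1 passed the test between duct and basal cells, and it was the ligand Bmp5, which fell. The test was limma's on log2(intensity + 16) with Benjamini-Hochberg adjustment at 0.05 over 12536 genes, each represented by its probe set with the highest mean level. Over all these genes 0.136% were called lower and 0.838% higher, and 0 of the 10 were called higher (2 of the 10 were higher at an unadjusted p under 0.05, Bmp2 and Bmp4). The groups did not overlap in 5 of the 10 genes. Bmp5, Id1 and Id2 were lower on every duct array than on either basal array, which was so for 22.6% of all tested genes, and Bmp2 and Bmp4 were higher, which was so for 16.5%. The median log2 fold change of the 10 genes was -0.23, against -0.12 over all tested genes.

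Among the ligands, Bmp5, which binds type I receptors as its close relative Bmp7 does, read 6861 and 7777 on basal replicates 1 and 2. On duct replicates 1, 2 and 3 it read 883, 822 and 1069. The duct arrays thus lay close together, well under the basal ones. The difference was -2.97 on the log2 scale (SE 0.25, 95% interval -3.58 to -2.35, limma adjusted p = 0.0125), a 7.83-fold decrease, and 3 of the 12536 genes had a lower fold change. The other Bmp5 probe sets went the same way. The second read 1188 and 1598 in basal and 216, 376 and 111 in duct cells (-2.63), and the third 930 and 1181 against 279, 139 and 109 (-2.58).

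The Bmp5 call was lost in most fits with 1 array left out. This was not particular to Bmp5. Over all 12536 genes 17 were called lower with 5 arrays, and fewer under every such exclusion. Without basal replicate 1 the adjusted p was 0.111, without basal replicate 2 it was 0.107, and without duct replicates 2 and 3 it was 0.0613 and 0.0762 (limma), so that the call was lost in these 4 cases. Without duct replicate 1 the call held at 0.0406, and over all 5 exclusions the fold change stayed between -3.08 and -2.88. When all 34945 probe sets of a single gene were tested with no filter on low values, limma called 0% of them lower (2405 were lower at an unadjusted p under 0.05), and the adjusted p of the Bmp5 probe sets was 0.0611, 0.165 and 0.195.

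Bmp4, a ligand often made by mesenchyme next to epithelium, differed in the opposite direction from Bmp5. Basal cells gave 252 and 271, and duct replicates 1, 2 and 3 gave 518, 732 and 1351. The groups did not overlap, but the duct arrays spread widely, with replicate 3 highest. The log2 fold change was 1.56 (95% interval 0.50 to 2.62) and did not pass over all genes (limma adjusted p = 0.150). It passed with each array centred on its median (1.77, adjusted p = 0.0438) and with an intensity trend and robust prior (adjusted p = 0.0380).

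Markers of mesenchyme were read beside Bmp4. Col1a1, a collagen of mesenchyme, read 259 and 204 in basal and 132, 359 and 518 on duct replicates 1, 2 and 3. Dcn read 3106 and 4090 in basal and 1520, 3123 and 2524 in duct cells. Pdgfra was over the controls on 1 basal and 2 duct arrays. The summed level of the 8 mesenchyme genes overlapped between groups, at 3908 and 4808 in basal and 1961 to 4305 in duct cells. Dcn made up most of each sum. Of the 4 tested genes 0 had groups apart, with 2 fold changes positive and 2 negative. Lum, not tested, read 3.11 and 11.5 in basal and 2.55, 108 and 88.4 in duct cells. Col3a1, also not tested, read 7.56 and 66.5 against 9.90, 374 and 160. Both were over the controls on duct replicates 2 and 3 alone. Postn was over them on 1 basal and 1 duct arrays. These 3 genes were chosen after their values were seen. Sums of 5 cartilage genes were 588 and 682 in basal and 402 to 1122 in duct cells. Of the 5, 1 was higher with groups apart, beside 16.5% of all tested genes. Acan read 283 and 179 in basal and 74.4, 332 and 155 on duct replicates 1, 2 and 3. Col2a1 read 65.7 and 162 against 135, 164 and 545. Acta2 and Myh11, from a list of smooth muscle and myoepithelium genes, separated the groups in opposite directions. Acta2, smooth muscle actin, read 119 and 142 in basal and 316, 429 and 459 on duct replicates 1, 2 and 3. Myh11, smooth muscle myosin, read 357 and 289 against 13.6, 80.7 and 30.7, and was under the controls on duct replicates 1 and 3. Neither passed (limma adjusted p = 0.0751 and 0.0806), and the sum of the 5 genes of that list overlapped, at 1209 and 1437 against 726 to 1770. The part of these cells in the Bmp4 values was not tested.

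Bmp2, the closest relative of Bmp4, also read higher in duct cells. It was at 115 and 64.7 on the basal arrays, the second of which was under that array's brightest Bacillus control, and at 240, 254 and 261 on the duct arrays. The duct values were tight and the groups did not overlap. The log2 fold change was 1.38 (95% interval 0.66 to 2.10, limma adjusted p = 0.0968), which does not pass; 96.6% of tested genes had a lower fold change than Bmp2, and 97.4% than Bmp4.

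Bmp7 gave no consistent direction across its probe sets. The one with the highest mean read 136 and 204 in basal and 207, 145 and 374 in duct cells (log2 fold change 0.40, 95% interval -0.68 to 1.47, limma adjusted p = 0.666), and the groups overlapped. A second read 302 and 143 against 150, 163 and 157 (-0.38). The third, under the brightest control on the basal arrays at 54.1 and 44.2, read 153, 111 and 70.0 in duct cells, with the groups apart; with its basal values under the controls, no fold is given. None of the 3 passed.

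**Figure D1:**
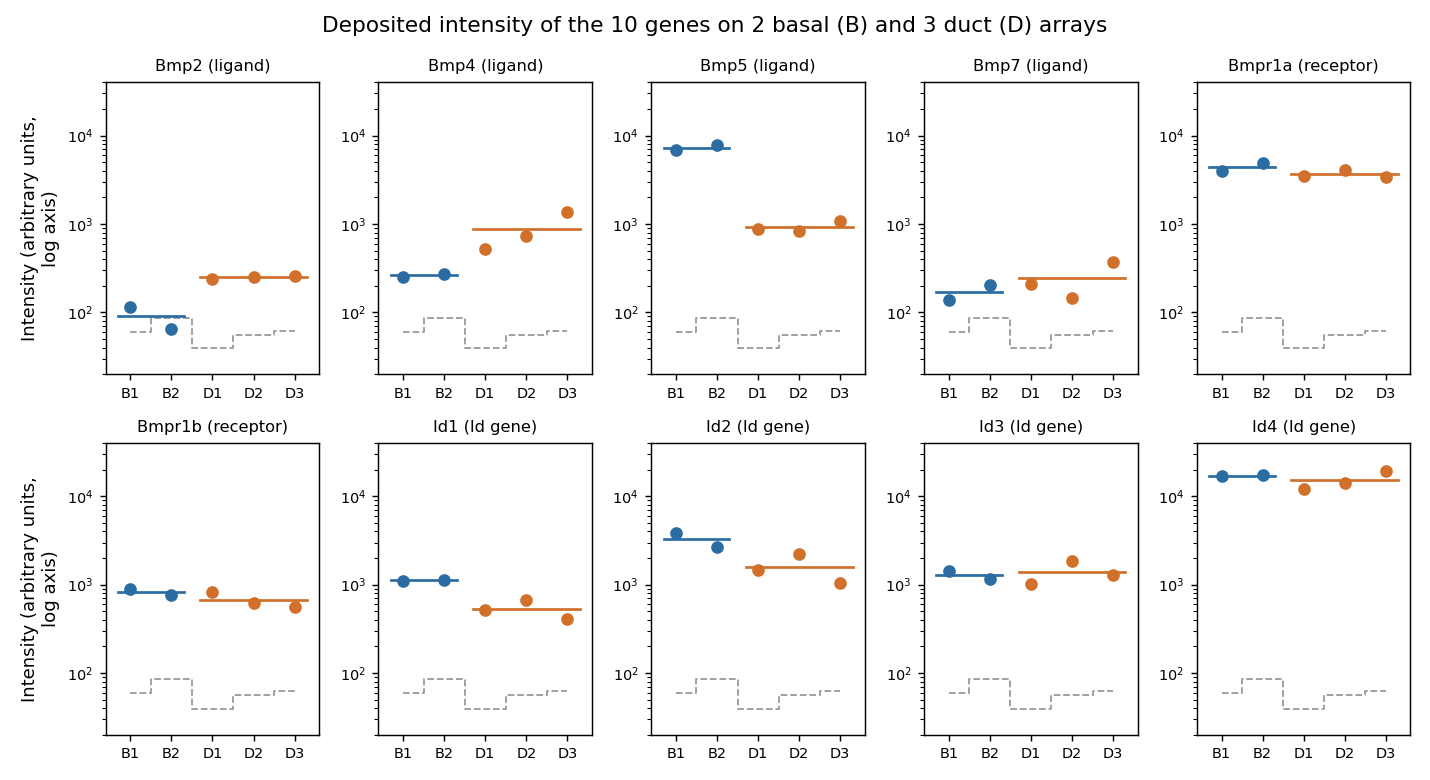
Deposited intensity (arbitrary units, log axis) of each of the 10 genes at its probe set with the highest mean level, on basal replicates 1 and 2 (B1, B2, blue) and duct replicates 1 to 3 (D1 to D3, orange); bars are group means and the dashed step is each array's brightest Bacillus control. Bmp5 drops from 6861 and 7777 to between 822 and 1069, while Bmp2 and Bmp4 sit higher on all duct arrays and Id3 and Id4 overlap.

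The receptors showed no difference past the test. Bmpr1a, a type I receptor found in most tissues, read 3929 and 4922 in basal and 3490, 4056 and 3368 in duct cells at its probe set with the highest mean. The groups overlapped, and the log2 fold change was -0.28 (95% interval -0.89 to 0.34, limma adjusted p = 0.595). Of its other 5 probe sets, 1 had groups apart, at 1218 and 1451 against 844, 748 and 382 (-1.07), and 1 was within the range of the controls on all 5 arrays. Bmpr1b, a type I receptor of more restricted expression, read 895 and 757 against 834, 616 and 556 (-0.31, 95% interval -1.0 to 0.38, limma adjusted p = 0.592). The groups of Bmpr1b overlapped there and at a second probe set (-0.62), but not at the third, which read 728 and 324 against 198, 165 and 281 (-1.16, adjusted p = 0.407 among all probe sets). The intervals of Bmpr1a and Bmpr1b also hold decreases of 0.89 and more on the log2 scale, so they do not show equal levels.

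None of the 4 Id genes passed the test, and how far Id2 and Id4 differed depended on the probe set. Id1, the best known immediate BMP target, read 1105 and 1126 in basal and 520, 676 and 405 in duct cells. All duct arrays were under both basal arrays, which differed by little. The log2 fold change was -1.07 (95% interval -1.79 to -0.35), a 2.10-fold lower level that did not pass over all genes (limma adjusted p = 0.148). Id2 read 3856 and 2677 in basal and 1477, 2216 and 1047 in duct cells at its probe set with the highest mean, again apart, with duct replicate 2 nearest to the basal range. Its fold change was -1.08 (95% interval -2.04 to -0.12, limma adjusted p = 0.229). The other 2 Id2 probe sets had overlapping groups and smaller differences, -0.28 and -0.17, and the mean of its probe sets gave -0.51. Of all tested genes, 7.72% had a lower fold change than Id1 and 7.47% than Id2.

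Id3 read 1444 and 1150 in basal and 1022, 1832 and 1275 in duct cells. The duct arrays lay on both sides of the basal ones (log2 fold change 0.05, 95% interval -0.76 to 0.86, limma adjusted p = 0.949). Id4, which among Id proteins has also been described as opposing the others, read 16944 and 17237 in basal and 12230, 14115 and 19374 in duct cells at its probe set with the highest mean. Duct replicate 3 exceeded both basal arrays and the other two were under them (-0.19, 95% interval -0.90 to 0.51, limma adjusted p = 0.760), and the sign turned with median centring, to 0.014. The other Id4 probe sets had groups apart. One read 1985 and 2958 against 1173, 1384 and 1874 (-0.74), and another 1161 and 1785 against 665, 1004 and 744 (-0.85), with adjusted p of 0.506 and 0.442 among all probe sets. The mean of the Id4 probe sets gave -0.59 (adjusted p = 0.330).

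Genes of the early response to tissue dissociation, a known effect of enzymatic cell isolation, were read beside the Id genes. Their summed level over 9 genes was 163975 and 145673 on the basal arrays and 111023 to 125367 on the duct arrays, without overlap. Of the 9, 4 were lower in duct cells with groups apart (22.6% of all tested genes were), 0 were higher with groups apart and 0 passed; at an unadjusted p under 0.05, 3 were lower. The part of this response in the Id values was not tested.

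**Figure D2:**
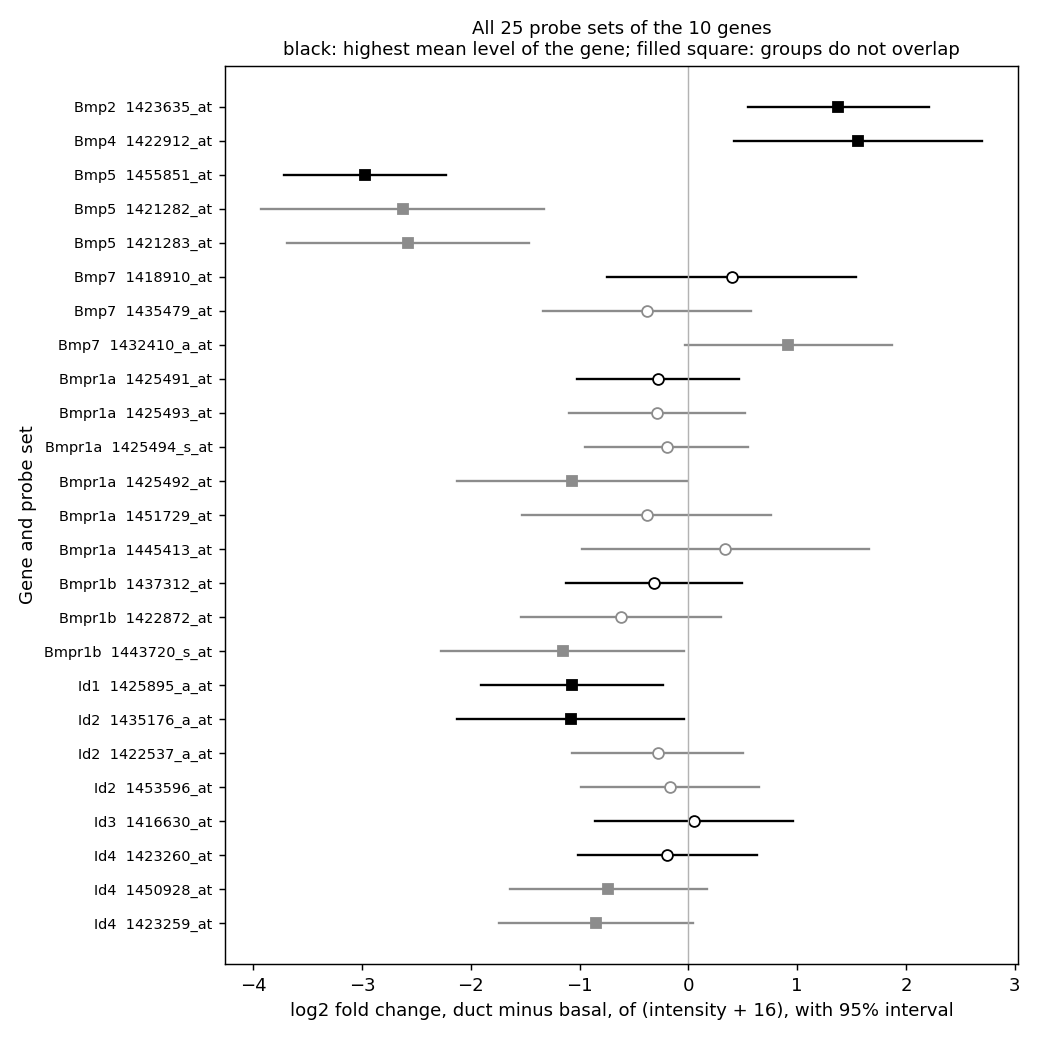
Log2 fold change, duct minus basal, of all 25 probe sets (rows, by gene) with 95% intervals from limma on unfiltered probe sets; black marks the probe set with the highest mean level of its gene, filled squares those whose groups do not overlap. All 3 Bmp5 probe sets lie between -2.97 and -2.58, whereas the probe sets of Bmp7 fall on both sides of 0; the lowest Bmp7 row was under the controls on both basal arrays and the lowest Bmpr1a row on all arrays, so their points are not measured folds.

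Bmp5 was then set beside each of the other 9 genes within each array, as the log2 value of Bmp5 minus that of the other gene, so that a scale factor of an array has little effect. The duct arrays were under the basal arrays in all 9 pairs, which all share Bmp5. The lowest fold change among the other genes was -1.08 (Id2), against -2.97 for Bmp5. The common direction thus follows from the fold changes above and is no separate result. The difference of differences was largest against Bmp4, -4.53, and Bmp2, -4.35, and was -3.37 against Bmp7. Against the receptors Bmpr1a and Bmpr1b it was -2.69 and -2.65. Against Id3 and Id4 it was -3.02 and -2.78, and against Id1 and Id2 it was smallest, -1.90 and -1.89. With 2 against 3 arrays the exact two-sided permutation test has 10 arrangements and cannot go below 0.1, the value of all 9 pairs, also after adjustment over the 9. The unequal size of the differences is therefore a description.

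The 5 genes whose profile over the 5 arrays lay nearest to that of Bmp5, by the Euclidean distance of centred log2 values, were Mtcl1, Porcn, Xaf1, Zfp810 and Dpysl3, at distances of 0.54 to 0.95. Porcn, the acyltransferase needed for Wnt secretion, read 4405 and 5148 in basal and 807, 803 and 564 in duct cells. Mtcl1, a microtubule crosslinking factor, read 932 and 702 against 113, 97.6 and 137. Xaf1, an interferon-stimulated gene, read 869 and 724 against 128, 135 and 102. Dpysl3, of the dihydropyrimidinase-like family, read 1710 and 1893 against 358, 348 and 216. Zfp810, a zinc finger gene, was within the range of the controls on all 3 duct arrays and at least 5.34-fold lower. All 5 were called lower, at limma adjusted p of 0.0202 to 0.0401, beside 0.136% of all tested genes. They were picked for a profile near that of Bmp5 on the same arrays, so their separation follows from the choice. Each call was lost without any 1 of the 5 arrays, exclusions that left fewer of all tested genes called. When probe sets were averaged, Xaf1 was at -1.13 in place of -2.56 and lost its call (adjusted p = 0.192), and Mtcl1 was at -1.63 in place of -2.66 (adjusted p = 0.0418).

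**Figure D3:**
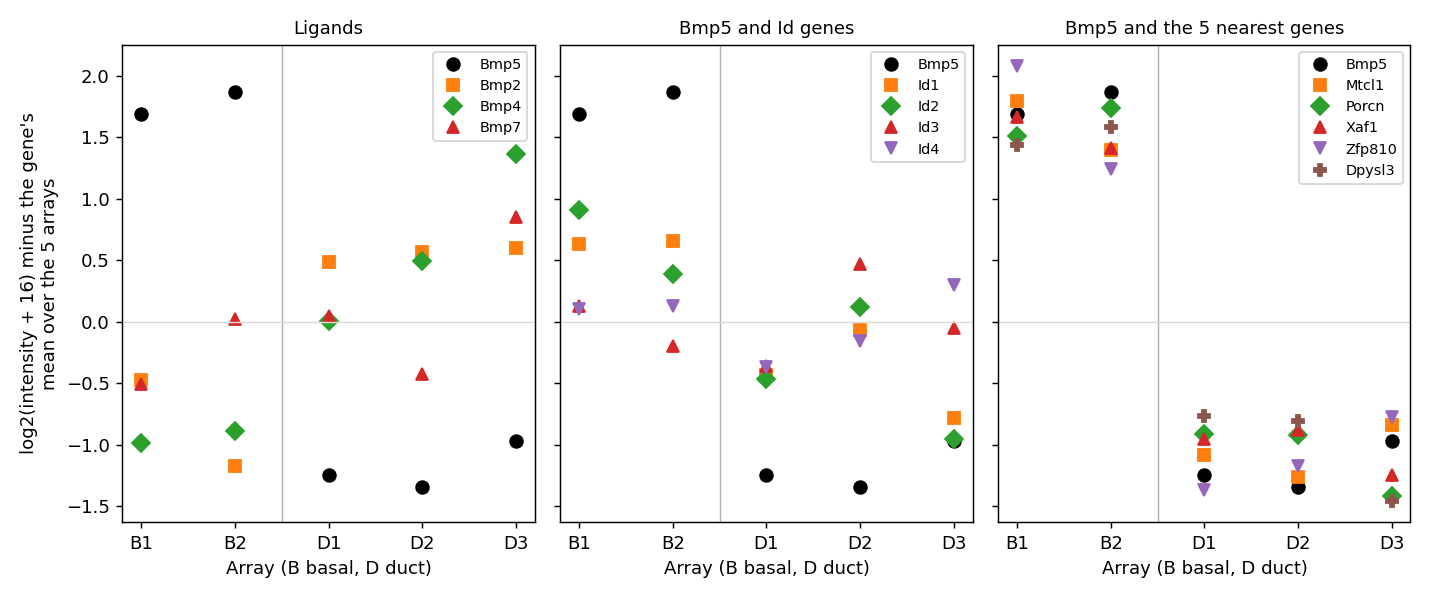
Log2(intensity + 16) of each gene minus its mean over the 5 arrays, by array (B basal, D duct; points are arrays, and the vertical line separates the groups), for the ligands, for Bmp5 with the Id genes and for Bmp5 with its 5 nearest genes. Bmp5 separates the groups, and its nearest genes do so because they were picked by profile. Bmp2 and Bmp4 separate them the other way, and Id1 and Id2 separate them in the direction of Bmp5 by less.

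The rest of the pathway was taken as 7 lists, 76 genes in all, of which 46 were tested. Of these, 1 was called higher and 0 lower with limma (at an unadjusted p under 0.05, 5 rank as higher and 8 as lower), and 14 were lower (30.4%) and 10 higher (21.7%) with groups apart, against 22.6% and 16.5% of all tested genes. The called gene was Fst, follistatin, a secreted binder of activins and BMPs, which read 42.5 and 22.2 in basal and 597, 380 and 486 in duct cells. Both basal values were within the range of the controls, so that Fst was at least 5.63-fold higher (limma adjusted p = 0.0194). That call was lost without either basal array or without duct replicate 2 or 3 (adjusted p 0.0608 to 0.123).

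Of 6 tested antagonists 4 were lower and 1, Fst, was higher with groups apart, beside 22.6% and 16.5% of all tested genes. The list's median was -0.73, and -0.43 without basal replicate 2. The mean level of 8 more was too low to test, among them Nog, Chrd, Grem1 and Chrdl1. Grem1 read 13.1 and 31.2 in basal and 10.3, 236 and 69.5 in duct cells. Chrdl1 read 56.6 and 13.4 against 33.0, 75.9 and 383. Both were over the controls on duct replicates 2 and 3 alone. Cer1 and Sost, also not tested, were lower in duct cells with groups apart. Fstl1, a follistatin-like secreted protein, read 2126 and 2283 in basal and 699, 871 and 573 in duct cells (-1.62, limma adjusted p = 0.0679). Bambi, a pseudoreceptor that dampens BMP and TGF-beta signalling and is itself a BMP target, read 837 and 583 against 262, 355 and 195 (-1.35, adjusted p = 0.127). Twsg1, a secreted BMP-binding protein, read 4136 and 4244 against 2762, 2857 and 2162 (-0.70, adjusted p = 0.228). Bambi, Grem1, Chrdl1, Cer1 and Sost, and below Acvrl1, Atoh8, Hey1 and Gata3, were chosen after their values were seen.

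Among intracellular transducers and regulators, with 10 tested, Smad7 stood lowest. Smad7, the inhibitory Smad that BMP and TGF-beta signalling induce, read 1289 and 806 in basal and 193, 234 and 134 in duct cells. Every duct array was under both basal arrays (-2.38, 95% interval -3.24 to -1.52), and the limma adjusted p was 0.0510. Smad7 passed under 6 alternatives, among them median centring (-2.18, adjusted p = 0.0145). Its probe set belongs to the _x_at class, whose probes can also match other transcripts; with _x_at and _s_at probe sets left out, another probe set stood for Smad7 and gave -0.79 (adjusted p = 0.360), and the mean of its probe sets gave -1.58 (adjusted p = 0.0471). Skil, a repressor of Smad activity, read 1869 and 1667 against 3769, 3032 and 3307 (0.92, adjusted p = 0.137). Smad1, which carries the BMP signal, read 4733 and 4064 against 6337, 5938 and 5135 (0.40, adjusted p = 0.435). The median of the list was 0.12. The groups were apart in 1 lower and 3 higher genes, beside 22.6% and 16.5% of all tested genes.

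The other target genes, with 8 tested, had a median of -0.59, and 4 were lower and 3 higher with groups apart, beside 22.6% and 16.5% of all tested genes; 0 were called (limma; at an unadjusted p under 0.05, 4 were lower and 1 higher). Smad7 and Bambi belong to this list too. Hey1, a bHLH repressor that BMP and Notch signals induce, read 2623 and 3179 in basal and 1279, 1332 and 1319 in duct cells (-1.13, adjusted p = 0.0928). Atoh8, a bHLH factor, read 340 and 321 against 31.0, 216 and 17.8, with duct replicates far apart (-2.27, adjusted p = 0.232). On duct replicates 1 and 3 it was under the brightest Bacillus control (39.5 and 61.9), so no fold is given without duct replicate 2. On the other side, Tfap2c, an AP-2 factor of surface ectoderm, read 7273 and 2510 against 11188, 8595 and 11699 (1.28, adjusted p = 0.242). The Tfap2c value was 2.04 without basal replicate 1, 0.51 without basal replicate 2, 1.90 with the mean of its probe sets and 2.57 without _x_at and _s_at probe sets. Smad6, Msx1 and Msx2, also common BMP targets, were too dim to test, as were Dlx3, Gata3 and Sp7. Of these, Gata3 alone had groups apart. It read 16.6 and 10.1 in basal, within the range of the controls, and 76.8, 125 and 120 in duct cells, over them. Gata3 is not in the counts above.

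The receptors outside the 10 genes, with 8 tested, had a median of -0.16 (0.048 with median centring), and 0 were called. Of the 8, 2 were lower with groups apart, beside 22.6% of all tested genes. Bmpr2, the type II receptor specific to BMPs, read 2804 and 2506 in basal and 2953, 2613 and 2621 in duct cells (0.04). Acvr2b, a type II receptor shared with activins, read 265 and 253 against 37.4, 187 and 217 (-1.01, adjusted p = 0.473; -0.34 without duct replicate 1), and Acvrl1, a type I receptor known from endothelium, 295 and 276 against 189, 133 and 205 (-0.67, adjusted p = 0.272). The endothelial markers Pecam1 and Cdh5 were over the controls on 2 and 4 of the 5 arrays; the sum of 7 endothelial genes was 718 and 1025 in basal and 511 to 778 in duct cells, 1 of the 7 could be tested, and their part in Acvrl1 was not tested. Of other BMP family ligands 1 could be tested, Bmp6, at 375 and 381 against 320, 493 and 249 (-0.14, adjusted p = 0.849).

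The partners of Id proteins and related bHLH genes, with 9 tested, had a median of -0.12 and 0 calls. That median was 0.021 with quantile normalization, 0.090 with median centring and -0.48 without basal replicate 2. The groups were apart in 2 lower and 2 higher genes, beside 22.6% and 16.5% of all tested genes. Hes6, a bHLH factor that opposes Hes1, read 854 and 698 in basal and 275, 248 and 62.2 in duct cells (-2.12, limma adjusted p = 0.164; -1.51 without duct replicate 3). Myc read 2355 and 2056 against 4709, 4389 and 5251 (1.11, adjusted p = 0.0983). Bhlhe40, a circadian and stress-responsive repressor, read 8896 and 6454 against 7138, 9224 and 3903 (-0.25). Of 6 genes that process ligands or cleave antagonists, 0 were called. The groups were apart in 3 lower and 1 higher genes, beside 22.6% and 16.5% of all tested genes. The median was -0.30, with -0.49 without duct replicate 1, -0.13 without duct replicate 3 and -0.092 with median centring. Furin, a convertase that cleaves BMP precursors, read 1468 on both basal arrays and 1146, 1177 and 873 in duct cells (-0.47, adjusted p = 0.383). The chordin-cleaving proteases differed in sign: Bmp1, which despite its name is not a ligand, was at 330 and 213 against 114, 200 and 164 (-0.71), and Tll1 at 153 and 296 against 459, 484 and 457 (1.07, adjusted p = 0.178).

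**Figure D4:**
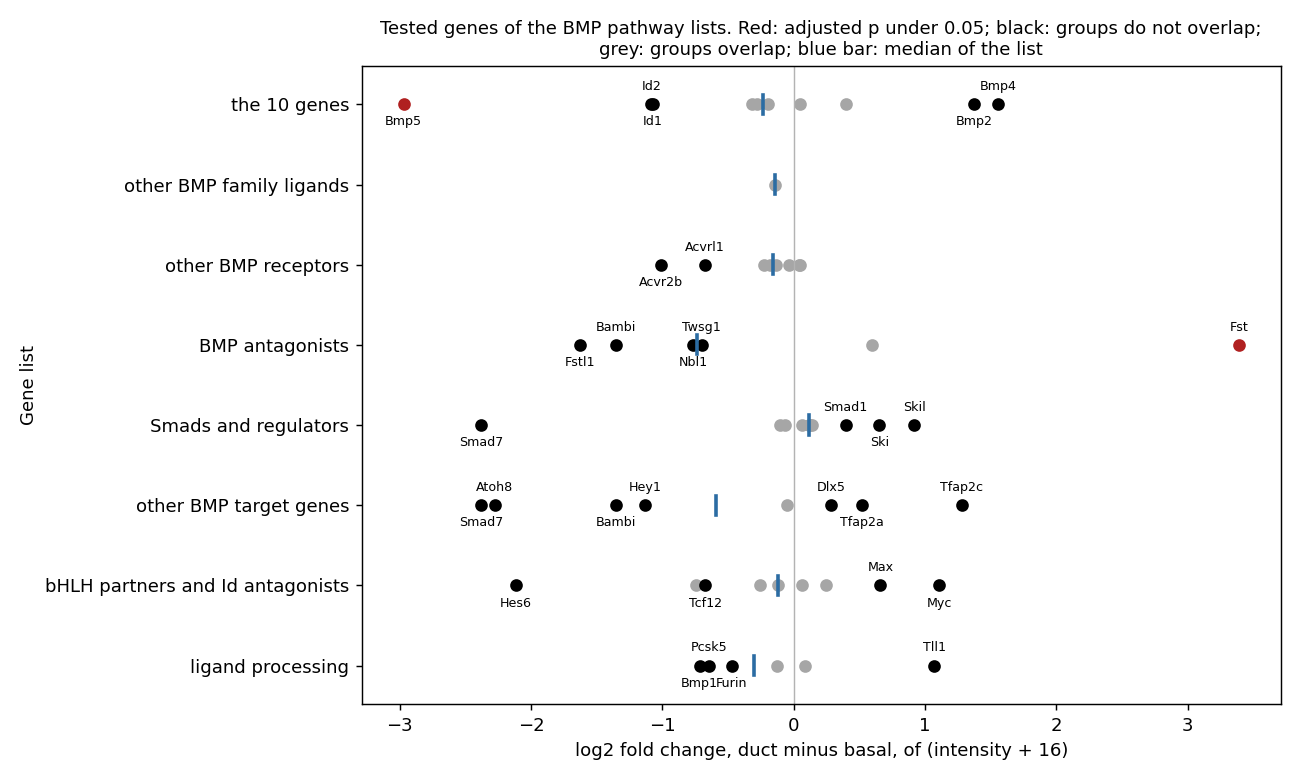
Log2 fold change, duct minus basal, of the tested genes of each list (rows); red marks genes with an adjusted p under 0.05, black those whose groups do not overlap, named beside the point, grey those that overlap, and the blue bar the median. Bmp5 (-2.97) and Fst (fitted at 3.39, its basal values within the controls) are the called genes, and Smad7, Atoh8, Bambi and Hey1 lie on the lower side of the target list.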

How the data were processed

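The authors deposited 1 linear intensity per probe set and array, and the values show that the mean, trimmed by 2% at each end, was set to be equal on all arrays. How probes were summarised into probe sets is not given in the labels. Among its 45101 probe sets, 64 are controls; 34945 had 1 gene in the platform's annotation, 932 several and 9160 none listed. Symbols were checked by Entrez identifier against GRCm38.p6, and 0 changed. The probe set with the highest mean log2(intensity + 16) stood for a gene, and probe sets in the lowest 40% were left out, which left 12536 of 18193 genes. Genes were fitted with limma 3.58.1 (lmFit, then eBayes; R 4.3.3), two-sided, on 5 arrays without covariates, with 3 residual and 2.79 prior degrees of freedom; it was tested on simulated data. Fold changes on this scale understate changes of dim genes. Where all arrays of a group were at or below the brightest Bacillus control, the fold is a bound against that level. Precision is limited by there being 5 arrays.

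Members and lists were chosen with earlier results of these data known. Named genes are the 10; of each list the called genes, the largest rise and fall with groups apart and the highest level; the 5 nearest to Bmp5; and defining markers. TROP-2 itself was not analysed here. Replicate numbers name separate pools: deviations of same-numbered arrays correlated at -0.08 and -0.04. Alternatives were quantile normalization, median centring, pseudocounts (1, 64), filters (none, or the lowest 60% left out), averaging a gene's probe sets, exclusion of _x_at and _s_at probe sets, an intensity trend with robust prior, a replicate block, array weights, probe sets as units and each array left out. Promoters are from RefSeq. Figures were drawn with matplotlib 3.10.9.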

Additional observations from a re-analysis of the deposited data

How the results depend on the processing

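Bmp5 was lower in duct cells under all 17 alternatives, at log2 fold changes of -3.08 to -2.72. The filters, the exclusion of _x_at and _s_at probe sets, the trend with robust prior and probe sets as units left it at -2.97. Those settings bear only on its call. The replicate block gave the same fold change as leaving out duct replicate 3. The Bmp5 call was lost with the replicate block (-3.08, limma adjusted p = 0.210), which left 0 of the 10 genes called, and without 4 of the 5 arrays. Over the 5 exclusions of an array the fold change was -3.08 to -2.88 and the number of the 10 genes called lower 0 to 1, the 1 without duct replicate 1. Bmp4 passed with median centring (1.77) and with the intensity trend and robust prior (1.56), when 1 of the 10 genes was called higher. Id1 and Id2 stayed lower and uncalled in all 17, at limma adjusted p of at least 0.0607 and 0.0531, and so did Bmpr1a and Bmpr1b. Bmp2 (16 alternatives) and Bmp7 stayed higher and uncalled. In nearly all of them Bmp7 was read at its probe set with the highest mean, and another of its probe sets was at -0.38. Id3 ranged from -0.17 to 0.24 with an array left out, and Id4 was at 0.014 with median centring.

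Called pathway genes numbered 1 lower with median centring, the mean of probe sets and array weights, 2 with a pseudocount of 64, 3 with the lowest 60% left out and 5 with the intensity trend and robust prior, against 0. Called higher were 3 with that trend, and 0 with no filter or the replicate block, against 1; with an array left out the numbers were 0 lower and 0 to 1 higher. Over all genes 0 to 377 were called lower and 0 to 565 higher, against 17 and 105. With any 1 array left out, fewer than these 17 and 105 were called. A lost call is therefore not particular to Bmp5, Fst or the 5 genes nearest to Bmp5.

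Bmp6 turned to 0.015 with quantile normalization, 0.062 with median centring and 0.069 with the replicate block, and ranged from -0.40 to 0.069 with an array left out. Bmpr2 was at -0.018 with quantile normalization and between -0.041 and 0.12 with an array left out. Bhlhe40 was at 0.10 with the replicate block and between -0.52 and 0.10 with an array left out. The median of the receptor list was 0.048 with median centring, and that of the bHLH list 0.021 with quantile normalization and 0.090 with median centring. The Smad list's median was -0.069 to 0.22 with an array left out. Median centring moved the median of all genes from -0.12 to 0.08 and quantile normalization to -0.05. Averaging probe sets gave 2.48 for Fst, which was at 2.51 with a pseudocount of 64. The cause of these changes was not tested. Dim probe sets near the Bacillus controls limit what can be said of Bmp2 and of the third Bmp7 probe set.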
